A study of Homo sapiens with 30 samples.

Results

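The machinery that moves newly made proteins into the endoplasmic reticulum (ER) and glycosylates them was followed through 41 genes. With earlier results of these data known, they were taken by name from the 57992 genes of the deposited table. They fall into 7 groups of 6 translocon genes (SEC61A1, SEC61B, SEC61G, SEC62, SEC63 and TRAM1), 4 genes of the translocon-associated protein complex TRAP (SSR1 to SSR4), 6 genes of the signal recognition particle SRP (SRP9, SRP14, SRP19, SRP54, SRP68 and SRP72), 2 genes of the SRP receptor (SRPRA and SRPRB), 5 genes of the signal peptidase (SPCS1, SPCS2, SPCS3, SEC11A and SEC11C), 8 genes of the ER membrane protein complex EMC (EMC1, EMC2, EMC3, EMC4, EMC6, EMC7, EMC8 and EMC10) and 10 genes of the oligosaccharyltransferase OST (DDOST, RPN1, RPN2, STT3A, STT3B, DAD1, OST4, OSTC, MAGT1 and KRTCAP2).

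SRP binds the signal sequence of a nascent chain as it leaves the ribosome and, through its receptor, docks the ribosome at the SEC61 channel. The signal peptidase then removes the signal sequence, OST transfers a preassembled glycan to asparagine side chains, and EMC inserts membrane proteins whose transmembrane segments are hard for SEC61 to handle. These steps are needed in every nucleated cell and are heavily used in cells that secrete, such as antibody-producing B cells.

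Total RNA depleted of rRNA was sequenced from HCT116, a human colorectal carcinoma line whose labels give MYC as stabilized, and from Ramos, a human Burkitt lymphoma line with a MYC translocation. Each line was left untreated or was treated with Omomyc, a recombinant mutant of the dimerization and DNA-binding region of MYC, and each of the 10 groups held 3 libraries, 30 in all. HCT116 cells received 2 or 10 μM Omomyc for 6 or 24 h, with a protein delivery reagent (ProteoJuice), and Ramos cells received 500 nM or 2.5 μM for 6 or 24 h with no delivery reagent described for them. The untreated groups carry no time, the sources leave unclear whether untreated HCT116 cells received the reagent, and nothing states that the 3 replicates were separate cultures, so that every p-value measures the spread between these libraries only.

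MYC and MAX bind DNA at the E box, so promoter windows of the members were read for the E box CACGTG, which is its own reverse complement. RefSeq windows from 250 bases before to 50 bases after a transcription start were used for 35 of the 41 members, and those of EMC2, RPN1, SPCS1, SRPRA, STT3B and TRAM1 were not analysed here. A member was counted once when any of its listed windows held the E box, and SSR3 had windows at different starts. The background was counted by promoter, not by gene. A member with several windows has more chances of a match, so the percentages are in unlike units and cannot show an excess among members. The E box was found for 4 of the 35 members (11.43%) and in 2548 of 35116 promoters in all (7.26%). It began 136 bases before the start of SSR1 (GRCh38.p14, chr6:7313318-7313347, minus strand), 213 bases before one listed start of SSR3 (chr3:156555313-156555342, minus strand), 42 bases before that of SEC11C (chr18:59139830-59139859, plus strand) and at -13 from that of DDOST. Stretches of 30 bases that lie wholly before the start are shown 5′ to 3′ to give the context of these matches, with the E box in capitals.
SSR1: gcagcagccggcCACGTGacttcccggtgg
SSR3: aggtgggtgggtCACGTGgcttgtcaggaa
SEC11C: cgagtcgccggtCACGTGgccgcaaggacg
A further match in SSR3 began at -8 from another listed start. The ER stress response element (CCAAT, any 9 bases, then CCACG), searched on both strands, was found in 27 of the 35116 promoters (0.08%) and in 0 of the 35 members. These matches describe letters in a window and say nothing of binding, which was not measured here.

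The deposited values are RPKM (reads scaled to gene length and to the size of the library), so the number of reads per library is unknown and precision rests on the replicates. Correlations of log2 values between replicates were 0.9656 to 0.993, and 0 of 30 pairs were identical. HCT116 libraries expressed 8 of 8 epithelial markers and 1 of 8 B cell markers (CD22), and Ramos libraries 8 of 8 B cell and 0 of 8 epithelial markers at a mean of at least 0.5 RPKM. The sum of RPKM was not the same in all libraries. It was 593633 to 660769 in untreated HCT116 and 742468 to 1051041 in the HCT116 libraries treated for 6 h, and 3 abundant small RNA genes (RN7SL1, RN7SL2 and RN7SK) held 15.49 to 21.47% of it in untreated HCT116 and 25.48 to 42.46% at 6 h. In Ramos they held 26.31 to 38.9%. The highest sum and share belonged to replicate 3 of the 10 μM 6 h group, which stood apart from its group and is left out of some values below. Because the choice of what to scale to moves all genes together, counts are also given after setting the RPKM sums of the libraries equal, a step that shifted the median gene by more than 0.1 on the log2 scale in each HCT116 comparison with untreated cells and in the Ramos comparisons at 2.5 μM.

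In untreated cells the members were abundant transcripts. Their median level was 60.0 RPKM in HCT116, against 9.91 RPKM over the genes with at least 0.5 RPKM, and 22 of 41 were among the 10% of those genes with the highest levels. In Ramos it was 45.8 RPKM against 9.74, and 16 of 41 were among the highest 10%. DDOST, an OST subunit, was highest in HCT116 at 223 ± 14.0 RPKM (SD, n = 3), and the SRP Alu-domain gene SRP9 was highest in Ramos at 176 ± 12 RPKM. EMC3, a core subunit of the EMC insertase, was lowest in HCT116 at 6.32 ± 0.273 RPKM, and EMC6, its partner in the membrane, was lowest in Ramos at 6.65 ± 0.190 RPKM. By group the median level ran from 23.2 RPKM for the SRP receptor to 92.4 RPKM for TRAP in HCT116, and from 24.6 RPKM for EMC to 110 RPKM for TRAP in Ramos.

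Between the untreated lines, 18 of the 41 members were higher in HCT116 and 16 were higher in Ramos, where 45.7% and 39% of all 15647 genes tested were called in these directions (limma on log2(RPKM + 0.5), Benjamini-Hochberg adjusted p under 0.05, the rule for all calls below). SRP68, which binds the SRP RNA, was 47.0 ± 5.66 RPKM in HCT116 and 10.8 ± 0.987 RPKM in Ramos, a log2 difference of 2.07 ± 0.10 (SE, adjusted p = 1.03e-06). SEC61A1, the channel itself, differed by 1.37 ± 0.05 (adjusted p = 1.25e-07) and RPN2, an OST subunit, by 1.34 ± 0.05 (adjusted p = 2.68e-07). The largest differences toward Ramos were those of EMC3 (-1.97 ± 0.07, adjusted p = 2.45e-07), SEC61B (-1.01 ± 0.07, adjusted p = 5.46e-06) and SSR4 (-0.88 ± 0.06, adjusted p = 5.77e-06). SEC61A1 was thus higher in HCT116 and its small partner SEC61B higher in Ramos, as was SEC61G (-0.62), whose call was lost with equal sums (-0.040, adjusted p = 0.714). With equal sums the split was 31 higher and 4 lower (62% and 22.3% of all genes) in place of 18 and 16, with the median of all genes moving from 0.09 to 0.65, and with a trend on gene length removed it was 15 and 19 (40.5% and 43.9%). Each line is 1 line, so line and culture cannot be told apart.

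**Figure D1:**
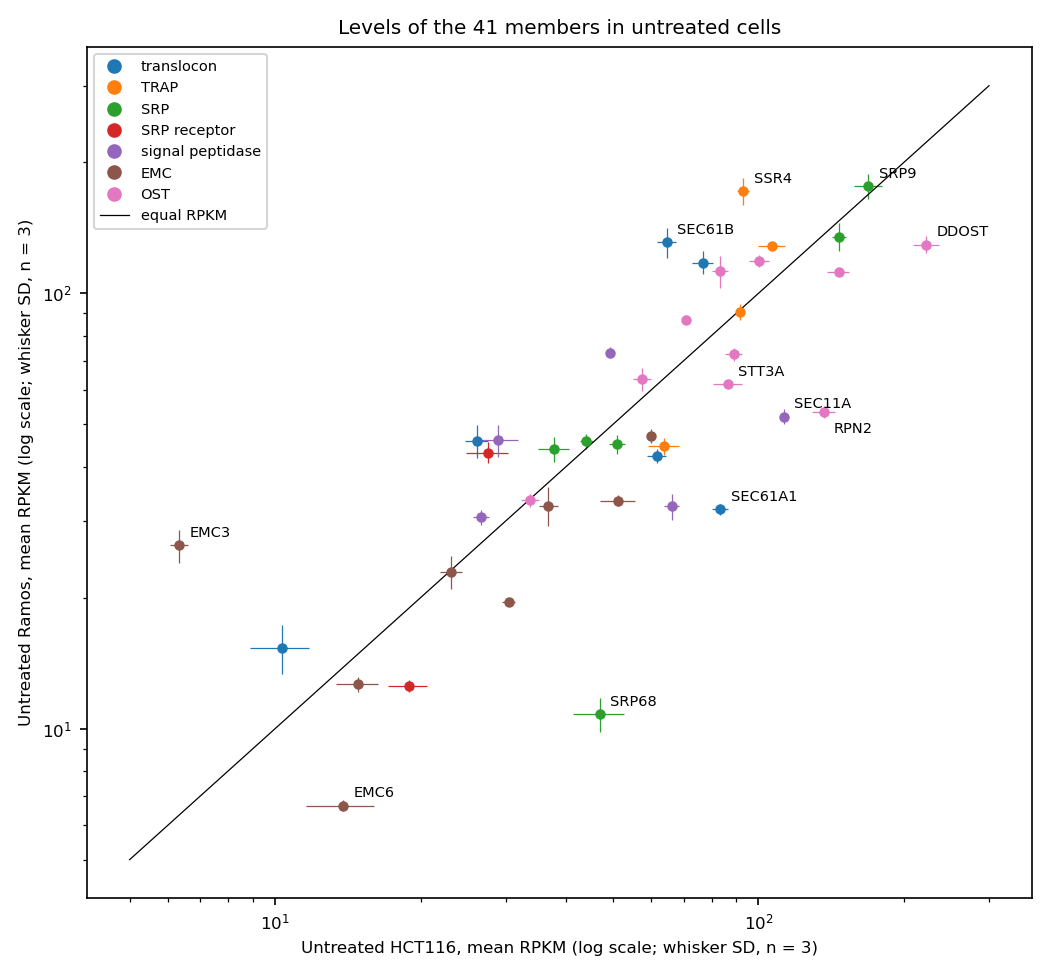
Mean RPKM of the 41 members in untreated HCT116 (horizontal axis) and untreated Ramos cells (vertical axis), both on log scales, with whiskers for the SD of 3 libraries, colours for the 7 groups and a line of equal RPKM. SRP68 lies far below the line at 47.0 RPKM in HCT116 and 10.8 RPKM in Ramos, and EMC3 far above it at 6.32 and 26.4 RPKM.

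The comparison of 10 μM Omomyc for 24 h with untreated HCT116 cells asks how these genes stood under the highest dose after a day. Of the 41 members, all of which passed the filter on low values here and in every other comparison, 29 rose and 2 fell, where 19.5% of 14827 genes tested rose and 15.7% fell. The median log2 fold change of the members was 0.38, against 0.02 over all genes tested. By group, 4 of 4 TRAP genes, 2 of 2 SRP receptor genes, 9 of 10 OST genes, 6 of 8 EMC genes, 4 of 5 signal peptidase genes and 4 of 6 translocon genes rose. None of the 6 SRP genes did, and SRP9 and SRP54 fell. The libraries of the 2 groups did not overlap for 29 members that were higher and 3 that were lower, where 26.6% and 22.7% of all genes were separate in this way. With equal sums, 15 members rose and 4 fell (6.75% and 26.3% of all genes), the members' median being 0.19 and that of all genes -0.15. Among the 16 members whose call changed with equal sums, SRP14 and SRP68 became lower and 14 rises were lost, those of SEC61A1, SEC61G, SEC62, TRAM1, SSR1, SSR3, SRPRA, SEC11A, EMC6, DDOST, RPN2, STT3B, OSTC and MAGT1. With all 5 HCT116 groups in 1 fit, 17 rose and 1 fell (8.76% and 8.34% of all genes). Median-ratio scaling gave 26 rises and 2 falls (18% and 17.5% of all genes). Equal sums over nuclear protein-coding genes gave 28 and 3 (17.6% and 16.4%), and removal of the length trend 26 and 3 (17.8% and 17.6%).

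EMC3 (ENSG00000125037, GRCh38 chr3:9962537-10011116) gave the largest rise. It read 6.04, 6.59 and 6.34 RPKM in the untreated libraries and 13.6, 14.1 and 13.8 RPKM with 10 μM for 24 h, a log2 fold change of 1.07 ± 0.07 (SE, n = 3, adjusted p = 1.16e-05). It read 10.1, 11.2 and 12.7 RPKM with 2 μM for 24 h and 16.5, 13.3 and 12.8 RPKM with 2 μM for 6 h. Every treated library was thus above every untreated one, also at 10 μM for 6 h, where replicate 3 gave 8.32 RPKM beside 14.4 and 17.4. KRTCAP2 (ENSG00000163463, chr1:155169408-155173475), an OST subunit of complexes that work at the SEC61 channel, read 59.7, 57.6 and 55.0 RPKM untreated and 102, 103 and 95.3 RPKM with 10 μM for 24 h, a log2 fold change of 0.80 ± 0.05 (adjusted p = 1.52e-05). It read 79.6, 76.4 and 82.8 RPKM with 2 μM for 24 h, and again no treated library overlapped an untreated one. EMC7, another EMC subunit, came next at 0.77 ± 0.09 (adjusted p = 0.000229).

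In the signal peptidase, which cuts off signal sequences, the largest HCT116 change was that of the accessory subunit SPCS2 (ENSG00000118363, chr11:74949247-74979031). It read 27.8, 26.6 and 25.7 RPKM untreated, 50.2, 39.1 and 46.1 RPKM with 10 μM for 24 h and 36.1, 32.2 and 40.0 RPKM with 2 μM for 24 h. At 6 h it read 43.1, 34.6 and 45.9 RPKM with 2 μM and 48.3, 44.5 and 55.7 RPKM with 10 μM, so that all treated libraries were above the untreated ones. The catalytic subunits SEC11A and SEC11C are paralogs and differed. SEC11C read 28.3, 32.0 and 26.6 RPKM untreated and 50.1, 47.8 and 47.6 RPKM with 10 μM for 24 h, a log2 fold change of 0.74 (adjusted p = 8.61e-05). SEC11A read 112, 112 and 115 RPKM untreated and 132, 128 and 118 RPKM treated, a log2 fold change of 0.16 (adjusted p = 0.0442) that was -0.030 with equal sums (adjusted p = 0.85). The catalytic OST paralogs STT3A, which acts during translocation, and STT3B, which can act after it, both rose, by 0.47 (adjusted p = 0.000354) and 0.26 (adjusted p = 0.00678), but STT3B was at 0.069 on no call with equal sums (adjusted p = 0.633).

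SSR4 (ENSG00000180879, chrX:153793516-153798505), a TRAP subunit, read 90.3, 95.9 and 92.8 RPKM untreated and 151, 156 and 149 RPKM with 10 μM for 24 h, a log2 fold change of 0.70 (adjusted p = 1.54e-05). SRPRB (ENSG00000144867, chr3:133784033-133825772), the membrane anchor of the SRP receptor, read 28.3, 29.9 and 24.6 RPKM untreated and 42.4, 44.9 and 41.9 RPKM treated, a rise of 0.64 (adjusted p = 0.00024). SEC62 (ENSG00000008952, chr3:169966635-169998373), which serves SRP-independent translocation, read 26.5, 27.4 and 24.6 RPKM untreated and 33.8, 30.4 and 33.4 RPKM treated, a rise of 0.31 (adjusted p = 0.00448) that was 0.12 on no call with equal sums (adjusted p = 0.368). No treated library of these 3 genes overlapped an untreated one. SEC63, the partner of SEC62 in the membrane, did not pass the threshold there (log2 fold change -0.03, adjusted p = 0.876).

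Among the SRP genes falls were called as well as rises. SRP54 (ENSG00000100883, chr14:34981957-35029567), the GTPase that binds signal sequences, read 45.1, 42.6 and 44.5 RPKM untreated. It read 34.2, 28.6 and 29.2 RPKM with 2 μM for 6 h, 26.3, 26.4 and 22.7 RPKM with 10 μM for 6 h, 36.3, 39.5 and 35.2 RPKM with 2 μM for 24 h and 37.9, 36.0 and 34.1 RPKM with 10 μM for 24 h. All 12 treated libraries were below the 3 untreated ones, which the 4 comparisons share. The log2 fold changes were -0.52 ± 0.08 (adjusted p = 0.000732) and -0.80 ± 0.10 (adjusted p = 0.00203) at 6 h, and -0.25 ± 0.06 (adjusted p = 0.0114) and -0.29 ± 0.05 (adjusted p = 0.00331) at 24 h, for 2 and 10 μM. SRP9, which with SRP14 holds the Alu end of the SRP RNA, fell by 0.32 on the log2 scale with 10 μM (adjusted p = 0.0151) and by 0.29 with 2 μM (adjusted p = 0.0172) at 24 h. SRP14 fell with 2 μM at 24 h (-0.19 ± 0.05, adjusted p = 0.023) and was -0.16 on no call with 10 μM. SRP68 passed in no HCT116 comparison with untreated cells, with log2 fold changes from -0.26 to 0.000851. With equal sums it was called lower in 3 of the 4, at -0.39 (10 μM, 24 h, adjusted p = 0.0206), -0.75 (10 μM, 6 h, adjusted p = 0.0255) and -0.33 (2 μM, 6 h, adjusted p = 0.0301). That scaling called 26.3%, 46.5% and 58.9% of all genes lower in these 3 comparisons, with medians over all genes of -0.145, -0.558 and -0.421.

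The RNA of SRP itself, encoded by RN7SL1 and RN7SL2, was looked at after its values had been seen. The 2 genes are near-identical copies whose reads the counting could split, so they are given side by side. RN7SL1 read 33345.6, 56067.2 and 33080.8 RPKM in untreated HCT116 and 70557.5, 98291.3 and 80432.7 RPKM with 2 μM for 6 h, a log2 fold change of 1.06 (adjusted p = 0.0205), and RN7SL2 gave 1.06 as well (adjusted p = 0.0128). With 10 μM for 6 h RN7SL1 read 85222.2, 75521.1 and 207391.9 RPKM, a log2 fold change of 1.48 (adjusted p = 0.0495). RN7SL2 read 75284.3, 64064.2 and 183290.7 RPKM there, a log2 fold change of 1.43 (adjusted p = 0.0497). Both values include replicate 3, which stood apart. At 24 h neither gene passed the threshold at either dose, with adjusted p from 0.154 to 0.43. In Ramos with 2.5 μM for 24 h RN7SL1 was at -0.63 (adjusted p = 0.0479) and RN7SL2 at -0.57 (adjusted p = 0.0546), so that 1 copy passed the threshold and the other did not. These genes hold a large share of the RPKM sums. Equal sums over nuclear protein-coding genes leave them out, together with all other noncoding and mitochondrial genes. The median of all genes in HCT116 at 6 h was then -0.0355 (10 μM) and -0.131 (2 μM). It was -0.558 and -0.421 with equal sums over all genes. The part of RN7SL1 and RN7SL2 alone in the scaling of the other genes was not tested.

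**Figure D2:**
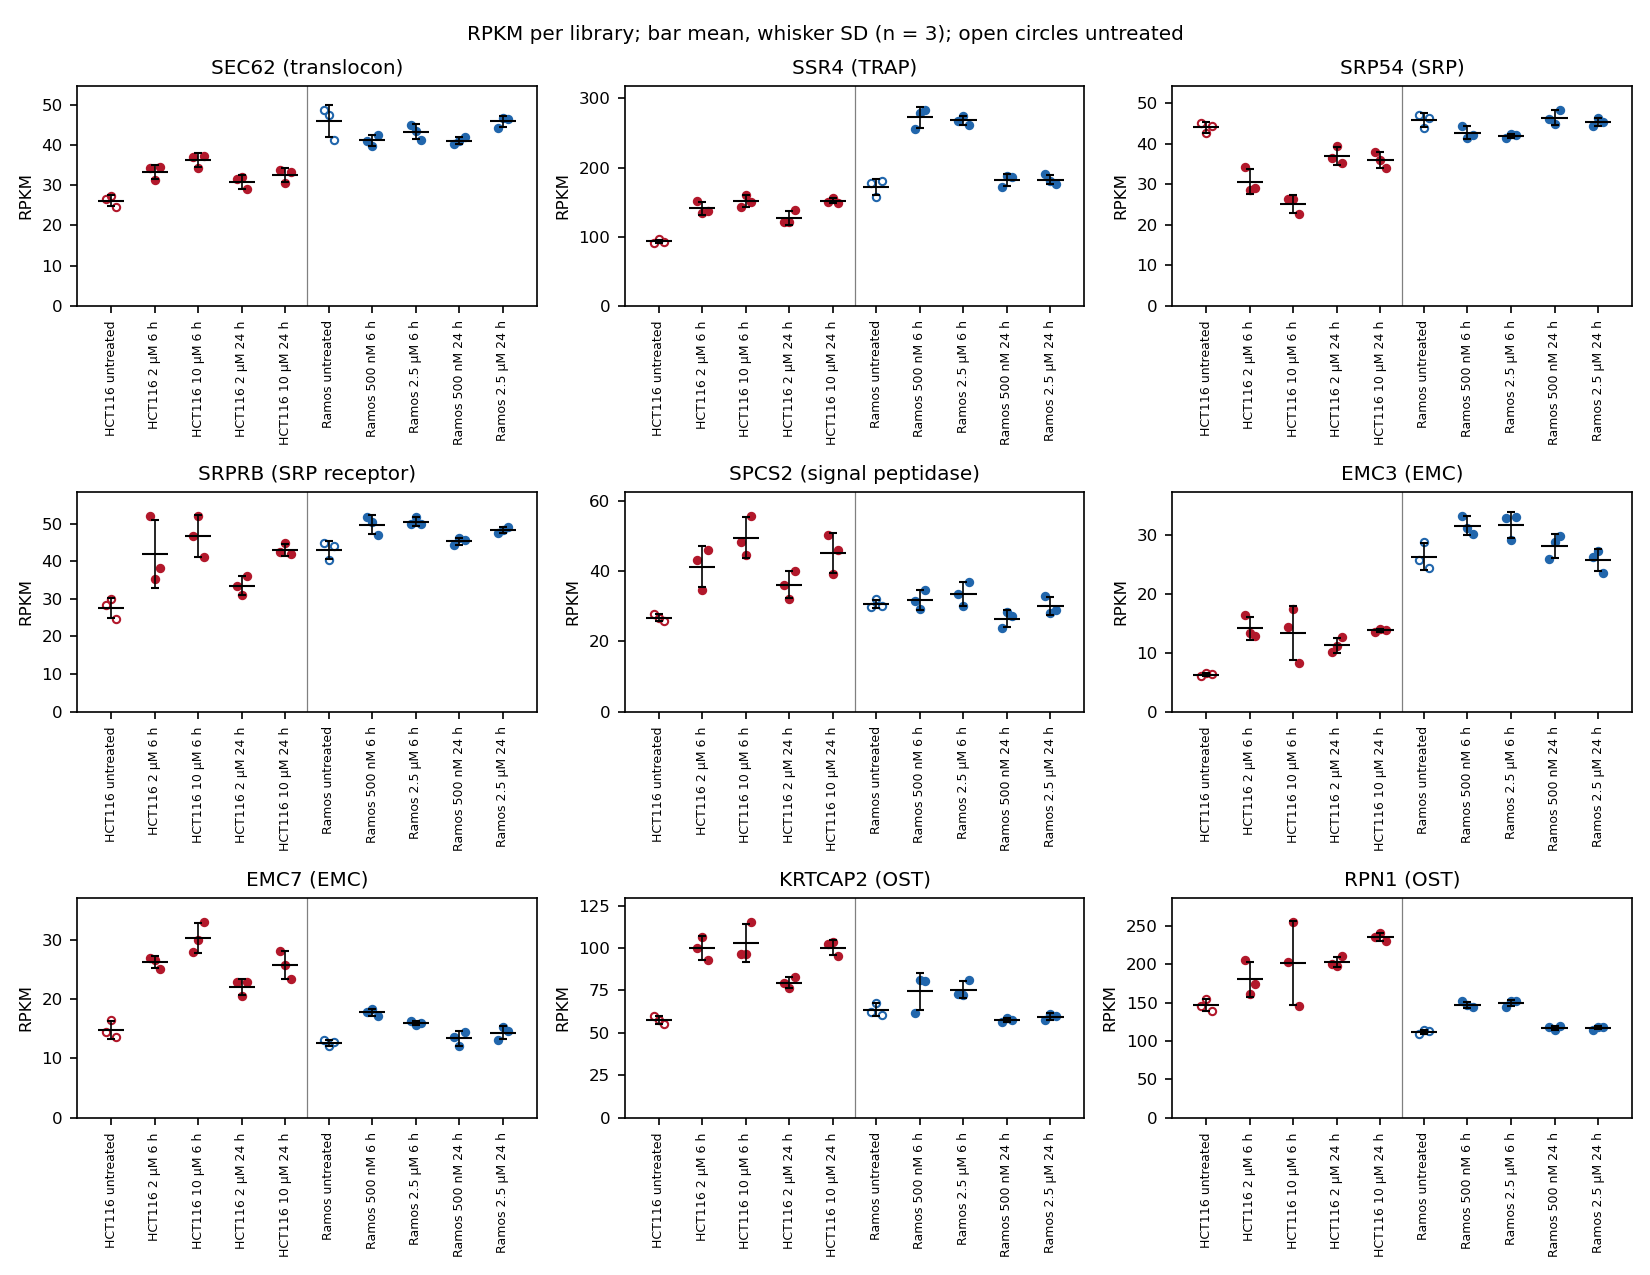
RPKM of 9 members in each library (points; open for untreated, red for HCT116, blue for Ramos), with the group mean (bar) and SD (whisker, n = 3) and an axis from 0. EMC3, KRTCAP2, SSR4 and SPCS2 are above the untreated HCT116 libraries in every treated HCT116 library, SRP54 is below them in every one, and SSR4 and RPN1 stand high in Ramos at 6 h and not at 24 h.

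With 2 μM for 24 h, 24 members rose and 3 fell, where 16.6% of 14886 genes tested rose and 10.8% fell. The median log2 fold change of the members was 0.25 against 0.04 over all genes. The largest rises were those of EMC3 (0.79 ± 0.09, adjusted p = 0.000687), EMC7 (0.56 ± 0.08, adjusted p = 0.00185) and SEC11C (0.53 ± 0.07, adjusted p = 0.00121), and the falls were those of SRP9, SRP54 and SRP14. TRAP again rose as 4 of 4 genes, from 0.25 for SSR3 to 0.45 for SSR4, and OST as 7 of 10, with RPN1 at 0.47 (adjusted p = 0.000634). Libraries were separate for 28 members that were higher and 3 that were lower, against 26.2% and 18.7% of all genes. With equal sums 8 members rose and 3 fell (5.99% and 20% of all genes), with a median of 0.090 over the members and -0.10 over all genes. EMC3 (0.64), EMC7 (0.41), SEC11C (0.38), RPN1 (0.31) and SSR4 (0.29) still passed there and SSR1, SSR2 and SSR3 did not. With all HCT116 groups in 1 fit 7 rose and 0 fell (7.51% of all genes called). Median-ratio scaling gave 22 rises and 3 falls (13.6% and 14.1% of all genes). Equal sums over nuclear protein-coding genes gave 24 and 3 (16.7% and 10.3%), and removal of the length trend 22 and 3 (13.3% and 14.1%).

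At 6 h the median over all genes stood below 0 and that over the members above it. With 2 μM for 6 h 24 members rose and 1, SRP54, fell, where 15.5% of 14550 genes tested rose and 31.8% fell (47.3% called in all). The median log2 fold change was 0.29 over the members and -0.12 over all genes. EMC3 rose by 1.1 ± 0.10 (adjusted p = 8.12e-05), EMC7 by 0.81 ± 0.08 (adjusted p = 0.00012) and KRTCAP2 by 0.79 ± 0.07 (adjusted p = 5.59e-05). Genes that did not pass at 24 h with this dose passed here, among them SRP19, a protein that joins the arms of the SRP RNA (0.55, adjusted p = 0.000334), the tail-anchored channel subunit SEC61B (0.40, adjusted p = 0.00087) and SRP72 (0.35, adjusted p = 0.00117). Of the OST genes 5 of 10 rose, whereas STT3A was -0.15 and STT3B -0.05 on no call. With equal sums 5 members rose and 9 fell (4.27% and 58.9% of all genes), with a median of -0.046 over the members against -0.42 over all genes. EMC3 (0.78), EMC7 (0.48) and KRTCAP2 (0.45) still passed there, the calls of SRP19 (0.21, adjusted p = 0.114), SEC61B (0.061, adjusted p = 0.636) and SRP72 (0.018, adjusted p = 0.894) were lost, and STT3A (-0.49) and STT3B (-0.39) were called lower. Median-ratio scaling gave 30 rises and 1 fall (23.6% and 21.9% of all genes). Equal sums over nuclear protein-coding genes gave 24 and 1 (14.5% and 31.6%), and removal of the length trend 28 and 1 (23.9% and 21.1%).

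With 10 μM for 6 h, 13 members rose and 1 fell, where 8.84% of 14785 genes tested rose and 21.2% fell (30% called in all). The median was 0.35 over the members and -0.11 over all genes. The 3 largest rises were those of EMC7 (1.01 ± 0.12, adjusted p = 0.0016), EMC3 (0.96 ± 0.24, adjusted p = 0.0221) and SPCS2 (0.87 ± 0.11, adjusted p = 0.00212), followed by KRTCAP2 at 0.83, and the fall was that of SRP54. Replicate 3 of this group stood apart, and without it 27 members rose and 3 fell (20.1% and 31.1% of all genes), SRP9 (-0.41) and SRP14 (-0.44) having joined SRP54, with a median of 0.35. Without an untreated replicate 6 (replicates 1 and 3) or 8 (replicate 2) members were called, with no share over all genes computed. With equal sums 1 member, EMC7, rose and 5 fell (2.08% and 46.5% of all genes), with a median of -0.14 over the members and -0.56 over all genes, and the calls of EMC3 (0.50, adjusted p = 0.203), SPCS2 (0.38, adjusted p = 0.0925) and KRTCAP2 (0.34, adjusted p = 0.125) were lost. Median-ratio scaling gave 19 rises and 1 fall (15.1% and 15.4% of all genes). Equal sums over nuclear protein-coding genes gave 15 and 1 (10.1% and 14.4%), and removal of the length trend 18 and 1 (14.2% and 15.1%).

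**Figure D3:**
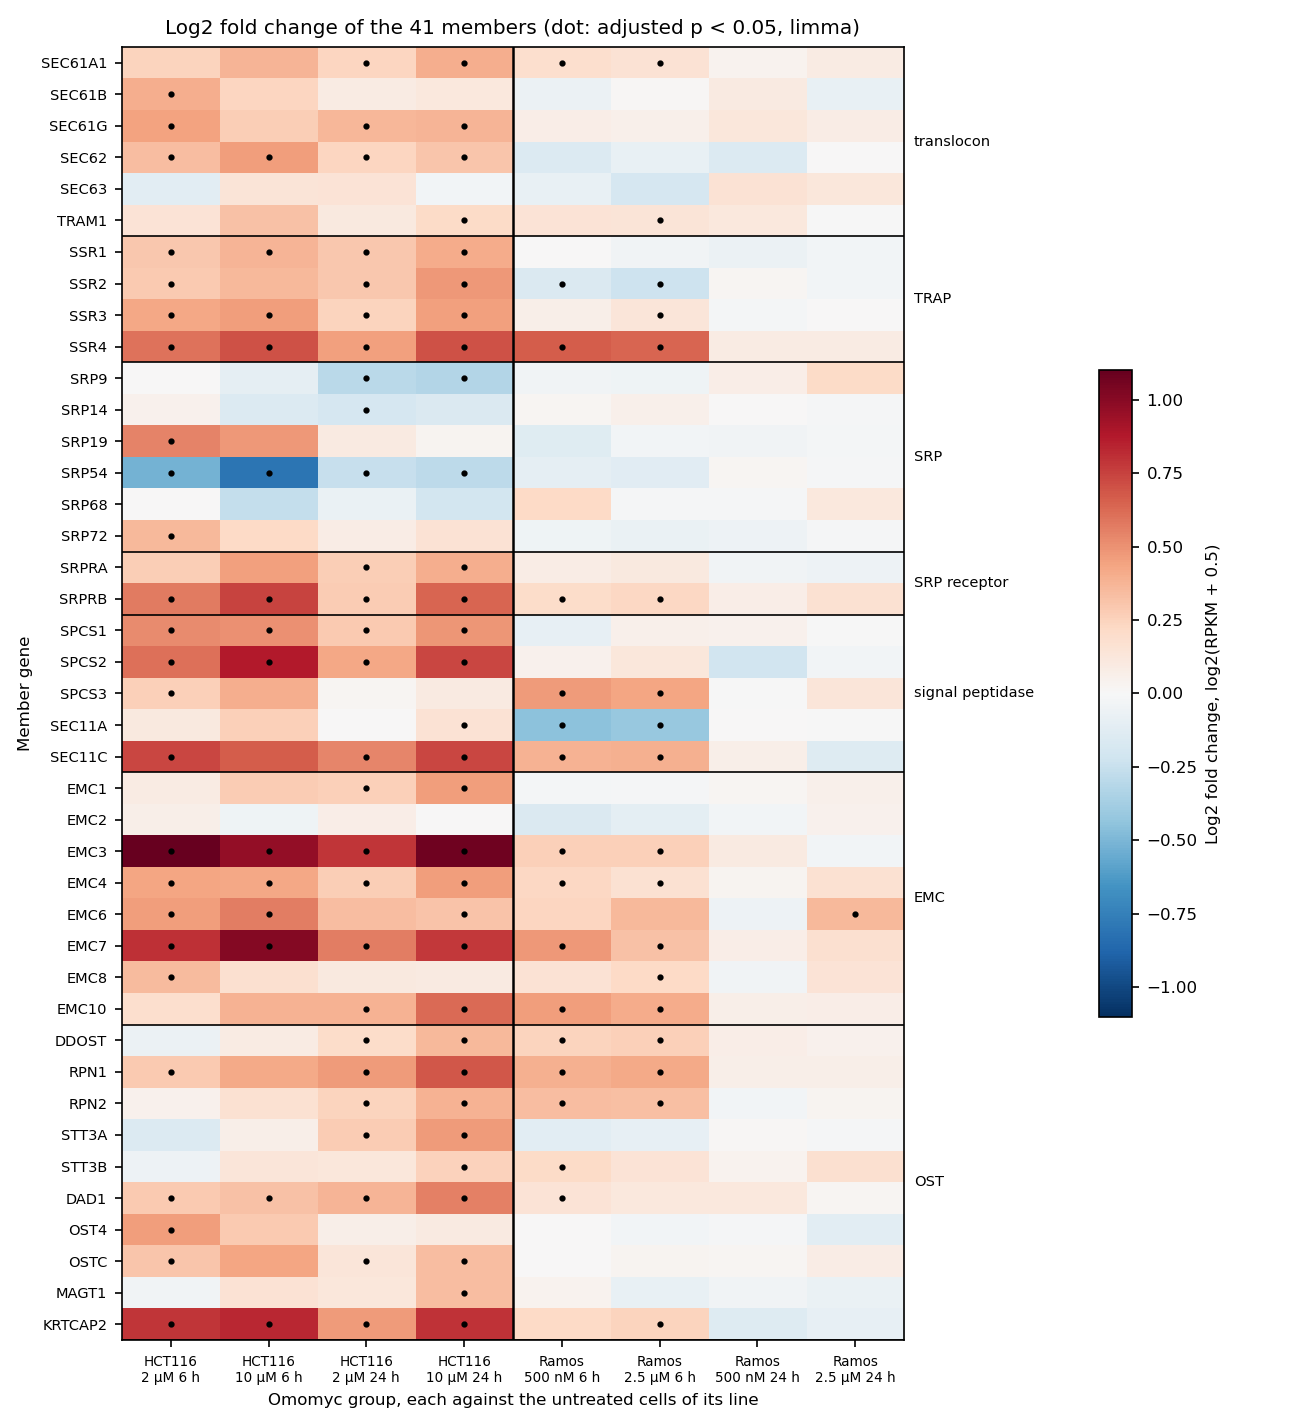
Log2 fold change, on the log2(RPKM + 0.5) scale, of each of the 41 members (rows, by group) in the 8 Omomyc groups (columns) against the untreated cells of the same line, with red for higher, blue for lower and a dot where the adjusted p was under 0.05. EMC3, EMC7, KRTCAP2 and SPCS2 are among the deepest reds in HCT116 and SRP54 the deepest blue, and in Ramos the dots lie at 6 h apart from EMC6 at 2.5 μM for 24 h.

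Over the 4 HCT116 comparisons, which share their untreated libraries, SEC63, SRP68 and EMC2 were called in none with the values as deposited. The share of all genes called in none was not computed. With equal sums SEC63 (2 μM, 6 h) and EMC2 (10 μM, 6 h) were called lower in 1 each. In those 2 fits 58.9% and 46.5% of all genes were called lower, with medians over all genes of -0.421 and -0.558. As deposited, EMC2, the cytosolic scaffold of EMC, was between -0.05 and 0.08. The other EMC subunits ranged, with 10 μM for 24 h, from 0.10 for EMC8 to 1.07 for EMC3.

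Doses and times were also set against each other within HCT116. Between 10 and 2 μM at 24 h 0 of 41 members passed the threshold, where 0.18% of 15039 genes did. Libraries were separate and higher at 10 μM for 21 members, where 7.51% of all genes were. An unadjusted p under 0.05 by limma was found for 22 members. The share of all genes below that unadjusted p was not computed, so this count has no background to be set against. The median difference was 0.15 over the members and -0.02 over all genes. At 6 h 0 members and 0% of 14601 genes passed, and 0 members had an unadjusted p under 0.05. Without replicate 3 of the 10 μM group 0 members and 0.639% of all genes passed. Between 24 and 6 h at 10 μM only SRP54 passed, being higher at 24 h by 0.51 ± 0.11 (adjusted p = 0.034), where 7.86% of 14920 genes passed (5.8% higher and 2.06% lower). Libraries were separate for 2 members that were higher and 3 that were lower (30.5% and 7.73% of all genes). That call was lost when any library of the pair of groups other than replicate 3 at 6 h was left out. Without replicate 3 at 6 h 3 members were called, all higher, where 16.8% of all genes were higher and 6.64% lower.

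At 2 μM 3 members were higher at 24 h than at 6 h and 10 were lower, where 30.9% of 14775 genes were higher and 9.85% lower. STT3A was higher at 24 h by 0.42 ± 0.11 (adjusted p = 0.0143), SRP54 by 0.27 ± 0.09 (adjusted p = 0.0329) and EMC10 by 0.19 ± 0.06 (adjusted p = 0.0402). SRP19 (-0.45 ± 0.08, adjusted p = 0.00265), OST4 (-0.39 ± 0.12, adjusted p = 0.0316) and KRTCAP2 (-0.32 ± 0.07, adjusted p = 0.00775) were the furthest below their 6 h level. The split depended on the scaling. It was 8 higher and 1 lower with equal sums (47.2% and 3.88% of all genes), 0 and 21 with median-ratio scaling (17.7% and 19.7%) and 0 and 22 with the length trend removed (16.1% and 20.3%), which also turned EMC10 to -0.068. Leaving out replicate 1, 2 or 3 of the 24 h group left 7, 5 or 8 calls, with no share over all genes computed.

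In Ramos cells 18 members passed the threshold with 2.5 μM and 16 with 500 nM at 6 h, against 1 and 0 at 24 h. With 2.5 μM for 6 h 16 members rose and 2 fell, where 17.3% of 13595 genes tested rose and 10.7% fell, and the median was 0.11 over the members against 0.03 over all genes. EMC (5 of 8), OST (4 of 10), TRAP (2 of 4), the signal peptidase (2 of 5), the translocon (2 of 6) and the SRP receptor (1 of 2) each held members that rose, and 0 of 6 SRP genes passed in either direction. The split was 22 higher and 1 lower with equal sums (29.3% and 5.1% of all genes), 11 and 4 with equal sums over nuclear protein-coding genes (12.7% and 13.7%), 11 and 3 with median-ratio scaling (13.9% and 13.1%) and 10 and 3 with the length trend removed (13.5% and 13.5%). With 500 nM for 6 h 14 rose and 2 fell, where 13.8% of 13614 genes tested rose and 9.73% fell, and the median was 0.07 against 0.02. With equal sums 15 rose and 1 fell (16.6% and 4.21% of all genes). Without replicate 2 of the 500 nM 6 h group 9 rose and 1 fell, with no share over all genes computed.

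SSR4 led both. It read 178, 158 and 180 RPKM in untreated Ramos, 255, 279 and 284 RPKM with 500 nM for 6 h and 268, 275 and 261 RPKM with 2.5 μM for 6 h, log2 fold changes of 0.67 ± 0.06 (adjusted p = 0.000244) and 0.64 ± 0.05 (adjusted p = 0.000117). At 24 h it read 172 to 190 RPKM in the 6 treated libraries and overlapped the untreated ones. Its partner SSR2 fell at 6 h, by 0.16 with 500 nM (adjusted p = 0.0206) and by 0.23 with 2.5 μM (adjusted p = 0.0143), and neither call was kept with equal sums (-0.068, adjusted p = 0.572, and -0.086, adjusted p = 0.357). SPCS3 (ENSG00000129128, chr4:176319964-176332245), an accessory signal peptidase subunit, read 75.7, 71.6 and 72.1 RPKM untreated, 104, 101 and 99.7 RPKM with 500 nM and 98.3, 99.3 and 99.8 RPKM with 2.5 μM for 6 h, a rise of 0.47 and 0.44 (adjusted p = 0.00024 and 0.000153). RPN1 (ENSG00000163902, chr3:128619970-128681075), an OST subunit that helps hold substrates, read 109, 114 and 113 RPKM untreated, 152, 147 and 144 RPKM with 500 nM and 145, 152 and 152 RPKM with 2.5 μM, a rise of 0.39 and 0.42 (adjusted p = 0.000432 and 0.000204). None of the 6 h libraries of SPCS3 and RPN1 overlapped an untreated one.

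The signal peptidase paralogs moved in opposite directions in Ramos at 6 h. SEC11A (ENSG00000140612, chr15:84669538-84716716) read 52.8, 53.9 and 49.7 RPKM untreated, 37.3, 39.4 and 37.1 RPKM with 500 nM and 39.5, 37.7 and 39.6 RPKM with 2.5 μM, a fall of 0.45 and 0.42 on the log2 scale (adjusted p = 0.000543 and 0.000485). SEC11C read 46.7, 49.4 and 41.9 RPKM untreated and 56.9, 59.7 and 62.8 RPKM with 500 nM and 58.2, 58.8 and 63.6 RPKM with 2.5 μM, a rise of 0.38 and 0.39 (adjusted p = 0.00462 and 0.00337). SEC11A was thus above SEC11C in the untreated libraries and below it in all 6 libraries at 6 h, and at 24 h it was back at 50.5 to 53.3 RPKM. Of the OST paralogs, STT3B rose with 500 nM (0.21, adjusted p = 0.0113) and STT3A was -0.11 on no call (adjusted p = 0.0945). In bulk RNA a change in the make-up of the cells and a change of RNA per cell cannot be told apart.

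EMC7 (ENSG00000134153, chr15:34084017-34101948) read 13.1, 12.1 and 12.7 RPKM untreated and 17.8, 18.3 and 17.2 RPKM with 500 nM for 6 h, a rise of 0.47 ± 0.06 (adjusted p = 0.00111), and 16.2, 15.7 and 15.9 RPKM with 2.5 μM, a rise of 0.32 (adjusted p = 0.00445). EMC3 rose there as well, by 0.26 at each dose (adjusted p = 0.0297 and 0.0312), from 26.4 RPKM untreated. SRPRB read 44.8, 40.3 and 44.2 RPKM untreated, 51.7, 50.5 and 47 RPKM with 500 nM and 49.8, 51.9 and 49.8 RPKM with 2.5 μM for 6 h, a rise of 0.21 and 0.23 (adjusted p = 0.0353 and 0.0126) with no overlap. SEC63 (ENSG00000025796, chr6:107867756-107958189) read 17.1, 13.2 and 15.6 RPKM untreated and 13.6, 12.3 and 14.1 RPKM with 2.5 μM for 6 h (-0.19, adjusted p = 0.184), and SRP68 (ENSG00000167881, chr17:76038775-76072653) read 11.5, 11.2 and 9.67 RPKM untreated and 14.1, 12.7 and 11.3 RPKM with 500 nM for 6 h (0.22, adjusted p = 0.137). Over the 4 Ramos comparisons 20 members were called in none. The share of all genes called in none was not computed, so this count has no background to be set against.

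At 24 h 1 member rose with 2.5 μM, where 3.3% of 13607 genes tested rose and 1.31% fell (4.61% called in all), and 0 members passed with 500 nM, where 0.0146% of 13674 genes did. The member was EMC6, at 6.84, 6.46 and 6.65 RPKM untreated and 8.41, 8.53 and 9.09 RPKM treated (0.36 ± 0.07, adjusted p = 0.0319). By limma 8 members had an unadjusted p under 0.05 with 2.5 μM and 4 with 500 nM, with no share over all genes computed. Libraries were separate for 9 members that were higher and 0 that were lower with 2.5 μM (20.6% and 6.83% of all genes), and for 3 and 2 with 500 nM (7.63% and 3.88%). The medians were 0.03 and 0.02 over the members and 0.05 and 0.02 over all genes. The call of EMC6 depended on the libraries, with 0 members called when untreated replicate 1 or 2 or any of the 3 treated ones was left out and 3 without untreated replicate 3. No share over all genes was computed for these fits. With equal sums 23 members rose with 2.5 μM (38.3% of all genes did), and the median of all genes was 0.24.

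Set against 6 h, 5 members were higher and 12 lower at 24 h with 2.5 μM, where 12.7% and 10.4% of 13564 genes were, and 3 were higher and 11 lower with 500 nM, where 11.9% and 13.5% of 13611 genes were. SSR4 was lower at 24 h by 0.55 (2.5 μM, adjusted p = 2.75e-05) and by 0.58 (500 nM, adjusted p = 0.000119), whereas SEC11A was higher by 0.41 (adjusted p = 0.000183) and 0.46 (adjusted p = 0.000175). With 2.5 μM SEC11C (-0.53, adjusted p = 0.000154) and RPN1 (-0.35, adjusted p = 0.000217) were also lower, and SEC63 (0.32, adjusted p = 0.00722) and SRP9 (0.26, adjusted p = 0.000695) higher. With 500 nM the same held of SPCS3 (-0.48, adjusted p = 0.000175) and EMC7 (-0.40, adjusted p = 0.00408) on the lower side. With equal sums the splits were 7 higher and 9 lower with 2.5 μM (17.6% and 5.25% of all genes) and 1 and 9 with 500 nM (7.01% and 10.9%). Between the Ramos doses, EMC6 was the only member called at 24 h, higher with 2.5 μM by 0.42 (adjusted p = 0.0318), where 2.39% of 13629 genes were higher and 1.86% lower. At 6 h 0 members were called, where 0.429% of 13511 genes were. An unadjusted p under 0.05 by limma was found for 3 members at 6 h, with no share over all genes computed.

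**Figure D4:**
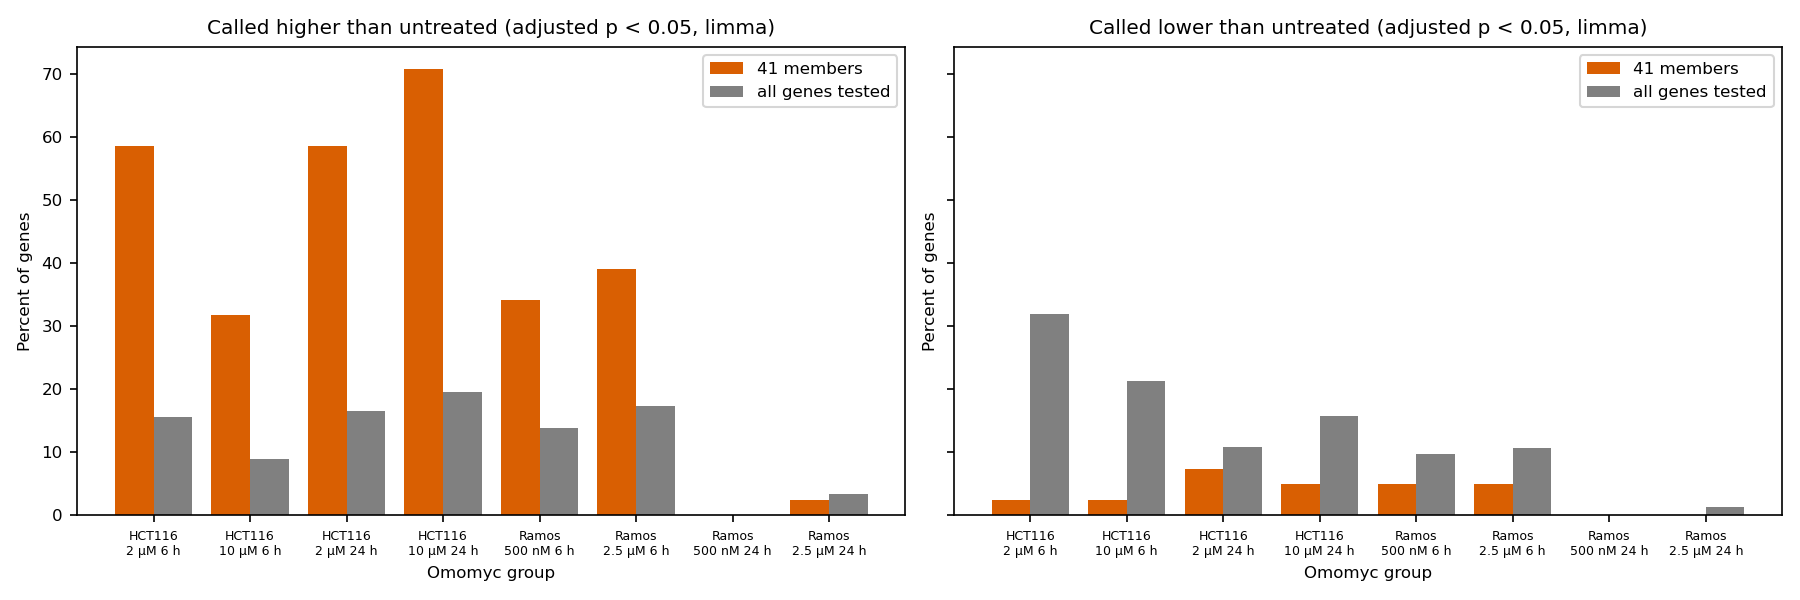
Percent of the 41 members (orange) and of all genes tested (grey) called higher (left) and lower (right) than untreated at an adjusted p under 0.05 in the 8 Omomyc groups. The orange bars reach 70.7% higher with 10 μM for 24 h in HCT116 beside 19.5% of all genes, and the grey bars are the taller ones on the lower side in every group with calls.

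Whether the changes differed between the lines was tested as an interaction. Doses and delivery were not matched, so line, dose and reagent cannot be told apart. At 24 h (10 μM in HCT116, 2.5 μM in Ramos) the change was further up in HCT116 for 24 members and further down for 2, where 9.65% and 12.9% of 15674 genes were. At 6 h (2 μM in HCT116, 2.5 μM in Ramos) it was so for 18 members and 1, where 12.2% and 28.4% of 15562 genes were. EMC3 differed most, by 1.105 ± 0.10 at 24 h (adjusted p = 5.51e-05) and 0.84 ± 0.13 at 6 h (adjusted p = 0.000582), followed at 24 h by KRTCAP2 (0.89 ± 0.08, adjusted p = 4.03e-05) and SEC11C (0.88 ± 0.10, adjusted p = 0.000316). SRP54 differed the other way, by -0.27 at 24 h (adjusted p = 0.0141) and -0.40 at 6 h (adjusted p = 0.00487), and SRP9 by -0.53 at 24 h (adjusted p = 0.00651). SSR4 at 6 h was not shown to differ (-0.05, adjusted p = 0.689). With equal sums the splits were 3 and 9 at 24 h, where 2.32% of all genes were further up and 40.8% further down, and 1 and 14 at 6 h, where 3.43% and 59.8% were. Median-ratio scaling gave 24 and 2 at 24 h (10.3% and 12.6% of all genes) and 21 and 1 at 6 h (18.1% and 20.2%). Equal sums over nuclear protein-coding genes gave 27 and 2 (10.3% and 10.7%) and 18 and 1 (13.2% and 25.3%). Removal of the length trend gave 23 and 2 (10.9% and 11.2%) and 20 and 1 (19.7% and 18.1%).

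**Figure D5:**
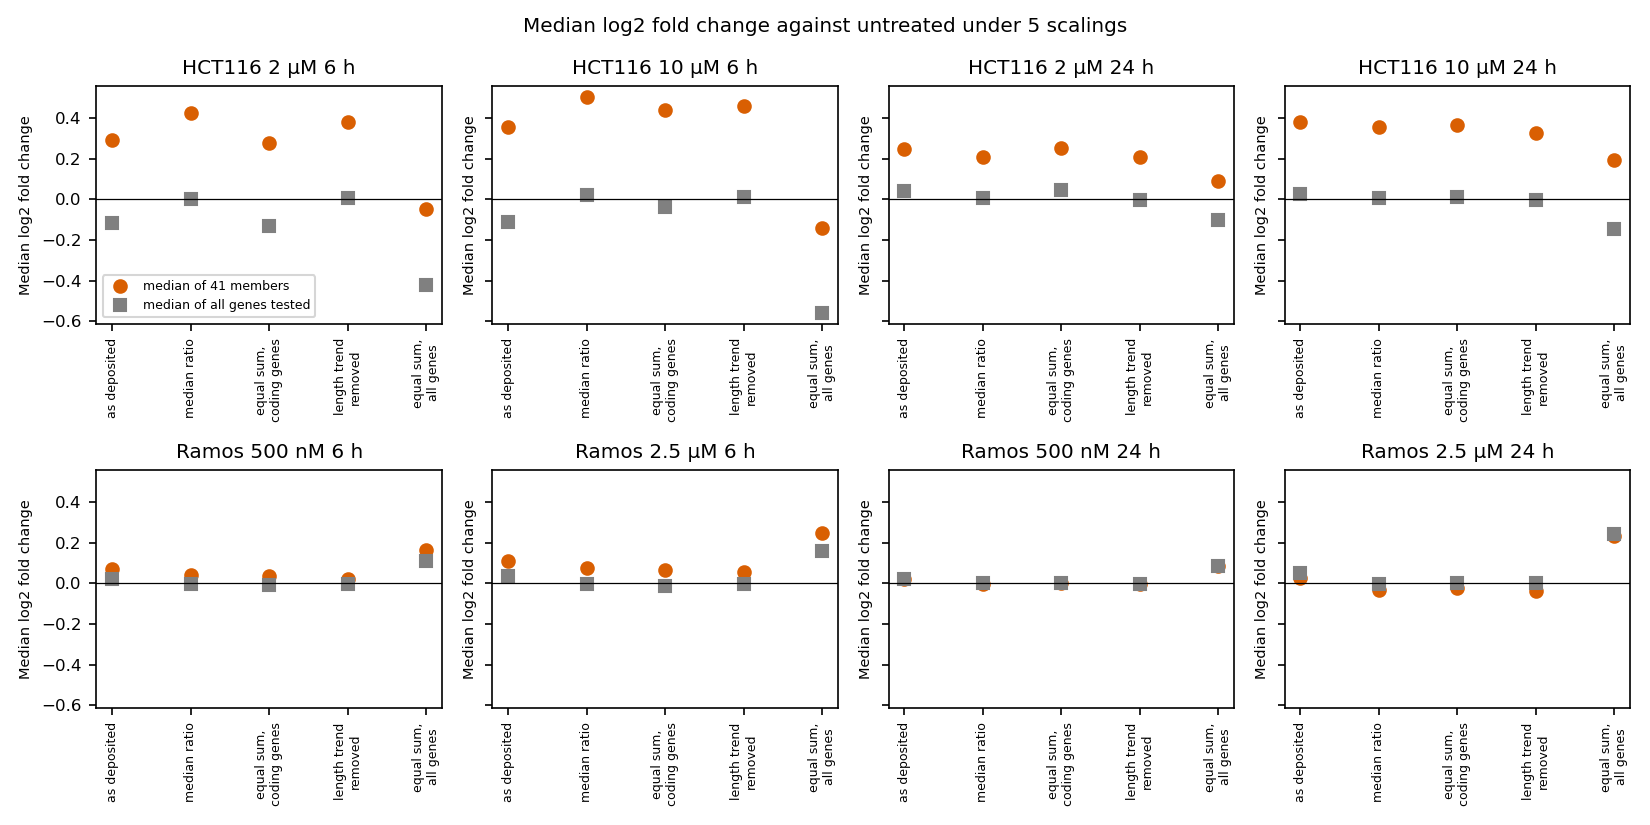
Median log2 fold change against untreated of the 41 members (orange) and of all genes tested (grey) in the 8 Omomyc groups under 5 scalings (horizontal axis). The members lie above all genes in the 4 HCT116 groups under each scaling, and with an equal sum over all genes both medians are below 0 in HCT116 at 6 h (-0.046 and -0.42 with 2 μM, -0.14 and -0.56 with 10 μM).

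The 4 members with an E box in the window were among both the called and the uncalled. With 10 μM for 24 h in HCT116 SSR1 was at 0.41 (adjusted p = 0.00108), SSR3 at 0.45 (adjusted p = 0.000186), SEC11C at 0.74 and DDOST at 0.36 (adjusted p = 0.00185), among 29 members that rose. With equal sums SEC11C kept its call (0.55, adjusted p = 0.000505), and SSR1 (0.22, adjusted p = 0.119), SSR3 (0.26, adjusted p = 0.0558) and DDOST (0.17, adjusted p = 0.202) did not. With 2.5 μM for 6 h in Ramos they were at -0.04 (adjusted p = 0.592), 0.13 (adjusted p = 0.0472), 0.39 and 0.26 (adjusted p = 0.00278).

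Some of these genes share their position with others. In GENCODE release 29, 11 members overlap another gene on the same strand and 26 one on the opposite strand, and how strand was handled in the counting is not given in the sources used here. STT3A overlaps CHEK1 on the same strand (43.7 RPKM on average), EMC8 overlaps COX4I1 (355 RPKM), SEC61A1 overlaps RUVBL1 and SSR4 overlaps IDH3G on the opposite strand, and values of such members are uncertain to that extent. Named pseudogenes exist for 9 members.

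Genes that work beside the members were described from 5 lists, whose counts stand beside shares of all genes called higher of 19.5% (10 μM, 24 h), 16.6% (2 μM, 24 h), 15.5% (2 μM, 6 h) and 8.84% (10 μM, 6 h) in HCT116. The list of translocon partners held 17 genes, of which TUSC3, itself an OST subunit, was below the filter. Of the 16 partners tested, 14 rose and 0 fell with 10 μM for 24 h in HCT116, led by TMEM208 (0.88) and NCLN (0.71). Of 22 genes that assemble the lipid-linked glycan used by OST, 17 rose and 0 fell, led by MPDU1 (0.94) and ALG1 (0.78), and of 14 ER chaperones and disulfide isomerases 14 rose, led by the chaperone CALR (1.06) and DNAJB11 (0.61). Of 13 ER stress response genes 7 rose, led by SDF2L1 (0.89) and CRELD2 (0.64), and HERPUD1, a gene of ER-associated degradation, fell (-0.38). In the GET pathway, which inserts tail-anchored proteins without SEC61, 3 of 7 rose, led by GET3 (0.52) and GET1 (0.29), and BAG6 fell (-0.25). The counts with 2 μM for 24 h were 12 of 16, 15 of 22, 12 of 14, 4 of 13 and 2 of 7 higher. At 6 h 3 of 14 chaperones were higher with 2 μM and 2 of 14 with 10 μM, beside 12 and 7 of the 22 glycan assembly genes.

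In Ramos at 6 h 17.3% of all genes were called higher with 2.5 μM and 13.8% with 500 nM. With 2.5 μM 10 of the 14 chaperones and isomerases rose, led by PDIA3 (0.68) and CALR (0.67), and with 500 nM 11 did, led by PDIA6 (0.70) and CALR (0.69), whereas 8 of 22 glycan assembly genes and 5 of 16 translocon partners rose at each dose. Of the 13 ER stress response genes 5 rose and 1 fell with 2.5 μM (median log2 fold change 0.04). With 500 nM 3 rose and 2 fell (median -0.007). CRELD2 (0.94 and 0.90) and SDF2L1 (0.82 and 0.91), both ER-resident proteins of the stress response, rose and EDEM1, which helps clear misfolded glycoproteins, fell (-0.40 and -0.25), as did the stress sensor EIF2AK3 with 500 nM (-0.26). At 24 h with 2.5 μM, UBL4A (0.35) and XBP1 (0.24) rose and HERPUD1 fell (-0.24) among these lists, and with 500 nM 0 passed. Whether the difference between the lists is larger than that between their genes was not tested.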

How the data were processed

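The authors deposited a table of RPKM values for 57992 genes in 30 libraries, and the submitters' processing notes name RSEM. The aligner, genome build, annotation and strand setting are not given in the sources used here. Groups follow the labels, which give the lower HCT116 dose as 2 μM where the methods give 2.5 μM, and the titles' 24 h was used where a tag reads 4 h. Symbols and positions came from GENCODE release 29 by Ensembl identifier (57388 of 57992 genes matched).

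Log2(RPKM + 0.5) was fitted, for genes whose mean over the libraries of a comparison reached 0.5 RPKM, with limma 3.58.1 (R 4.3.3; lmFit, eBayes with trend) over the whole table for each of 19 comparisons, with Benjamini-Hochberg adjustment over all genes tested. Fold changes are on that scale. RPKM is not a count, so no count model was run. The procedure was tested on simulated data.

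Members, gene lists and tests were chosen with earlier results of these data known. Values of every library are given for the member with the largest change of each group in each line, statistics for up to 3 rises and 3 falls per comparison, and up to 2 of each for other lists. The paralogs SEC11A and SEC11C, and STT3A and STT3B, are given side by side. RN7SL1 and RN7SL2 and the other genes named outside this rule were chosen after their values were seen.

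The fits were repeated with pseudocounts of 0.1 and 1, without the filter, after median-ratio scaling, with equal sums of RPKM, with a block for the replicate number, with every group of the lines concerned in 1 fit, and without each library in turn. Equal sums over nuclear protein-coding genes and removal of a lowess trend on exon length (span 0.3) were added after seeing the data.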

Additional observations from a re-analysis of the deposited data

Results flagged for a closer look

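The change from untreated cells differed between HCT116 and Ramos, by an interaction term in limma with an adjusted p under 0.05, for 26 members at 24 h (10 μM in HCT116, 2.5 μM in Ramos) and for 19 at 6 h (2 μM in HCT116, 2.5 μM in Ramos). Over all genes tested 22.5% and 40.6% were called. With equal sums the change was further up in HCT116 for 3 members and further down for 9 at 24 h (2.32% and 40.8% of all genes). At 6 h it was so for 1 and 14 (3.43% and 59.8%). The values below, with the scaling as deposited, are the log2 change in HCT116 minus that in Ramos. Dose and delivery were not matched, and line, dose and reagent cannot be told apart.

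At 24 h the differences in the translocon and TRAP were those of SEC61A1 (0.31), SEC62 (0.31), SSR1 (0.44), SSR2 (0.50), SSR3 (0.45) and SSR4 (0.62). In SRP and its receptor they were those of SRP9 (-0.53), SRP54 (-0.27), SRPRA (0.46) and SRPRB (0.47), and in the signal peptidase those of SPCS1 (0.49), SPCS2 (0.77) and SEC11C (0.88). In EMC they were those of EMC1 (0.41), EMC3 (1.105), EMC4 (0.30), EMC7 (0.60) and EMC10 (0.54). In OST they were those of DDOST (0.31), RPN1 (0.61), RPN2 (0.35), STT3A (0.48), DAD1 (0.53), OSTC (0.26), MAGT1 (0.41) and KRTCAP2 (0.89).

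At 6 h they were, in the translocon and TRAP, those of SEC61B (0.38), SEC61G (0.39), SEC62 (0.42), SSR1 (0.34), SSR2 (0.51) and SSR3 (0.29). In SRP they were those of SRP19 (0.57), SRP54 (-0.40) and SRP72 (0.42), and in the signal peptidase those of SPCS1 (0.47), SPCS2 (0.48), SEC11A (0.52) and SEC11C (0.34). In EMC and OST they were those of EMC3 (0.84), EMC4 (0.26), EMC7 (0.48), OST4 (0.49), OSTC (0.28) and KRTCAP2 (0.54).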

How the results depend on the processing

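Pseudocounts of 0.1 and 1 changed no call among the 65 values of named members and no count of members called by more than 1.5 times. With equal sums of RPKM the members called in HCT116 numbered 19 (10 μM, 24 h), 11 (2 μM, 24 h), 6 (10 μM, 6 h) and 14 (2 μM, 6 h). Of all genes 33%, 26%, 48.6% and 63.1% were called there. In Ramos 23 members were called with 2.5 μM for 24 h (39.4% of all genes) and 10 between the doses at 24 h (18.8%). In the interaction at 24 h 12 members were called (43.1%). The members' medians were then 0.19, 0.090, -0.14 and -0.046 in HCT116 in the same order, and 0.23 (2.5 μM, 24 h), 0.25 (2.5 μM, 6 h) and 0.16 (500 nM, 6 h) in Ramos. In HCT116 at 6 h the median was 0.50 (10 μM) and 0.42 (2 μM) with median-ratio scaling, 0.46 and 0.38 with the length trend removed, and 0.44 (10 μM) with equal sums over coding genes. The 1 call in Ramos with 2.5 μM for 24 h became 0 with no filter, median-ratio scaling (2.54% of all genes called) or equal sums over coding genes (2.45%). It became 2 with all groups in 1 fit (9.14%). The 1 call between times at 10 μM became 0 with median-ratio scaling (6.51% of all genes called) and with equal sums over coding genes (3.41%). It also became 0 with the length trend removed (7.07%) and with no filter. Between times at 2 μM there were 7 calls with no filter, 21 with median-ratio scaling (37.4% of all genes called) and 5 with all groups in 1 fit (34.3%). With the length trend removed there were 22 (36.4%), and EMC10 turned to -0.068 and was not past the threshold. Between times at 2.5 μM there were 11 with no filter. For the fits with no filter, no share over all genes was computed. The 1 call between Ramos doses at 24 h became 0 with no filter or all groups in 1 fit (6.65% of all genes called). It became 2 with equal sums over coding genes (3.45%) or the length trend removed (4.01%). All groups in 1 fit gave 18 (10 μM, 24 h), 7 (2 μM, 24 h) and 17 (interaction at 24 h), where 17.1%, 7.51% and 14.3% of all genes were called. The causes were not tested.

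Leaving out 1 library at a time gave 6 to 30 members called with 10 μM for 6 h, a median of 0.21 to 0.34 with 2 μM for 6 h (lowest without its replicate 1), 0 to 3 calls in Ramos with 2.5 μM for 24 h, 10 to 15 with 500 nM for 6 h, 0 to 3 between times at 10 μM, 5 to 15 between times at 2 μM, and 0 to 1 between Ramos doses at 24 h (0 without any 2.5 μM library). Of the 65 named values 12 were lost in at least 1 such fit. Only without replicate 3 of the 10 μM 6 h group was the share over all genes computed.

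Replicate numbers did not pair the libraries: correlations of deviations were -0.303 to 0.184, and in 0 of 17 comparisons were all 3 over 0.1. With the replicate block the calls became 0 in Ramos with 2.5 μM for 24 h (1.45% of all genes called) and 0 between times at 10 μM (1.72%). They became 0 between Ramos doses at 24 h as well (2.69%). With that block 6 of the 65 named values were no longer past the threshold. With 3 libraries a group and RPKM in place of counts, the depth behind low values is unknown.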
